A study of Ovis aries with 36 samples.

Results

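ENSOARG00000017195 was the most abundant gene in every one of the 36 libraries made from sheep infraspinatus, a muscle of the rotator cuff that turns the shoulder outwards. It is 1 of the 25197 genes listed in each file, and it was chosen by that rank, from the values in all 36 libraries, so its rank and its level are descriptions and were not tested. The files give an Ensembl identifier and no name. None of the 25197 identifiers matched the gene name table used here, so the gene is called by its identifier, and its product, sequence and position are not given. The same limit meant that the labelled tissue was not checked against muscle markers.

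The libraries came from 9 female Swiss Alpine sheep, 2 years old, with 3 animals in each of 3 arms. In all 3 arms the infraspinatus tendon was cut from the bone and was reattached 16 weeks later. CONTROL animals (2901, 2902 and 2903) received no drug. N22W animals (2913, 2914 and 2915) received 150 mg of nandrolone decanoate, an anabolic steroid, every week from release on, and N6W animals (2907, 2908 and 2909) received the same weekly dose from repair on. Each animal gave 4 biopsies. PRE was taken before release, TR at repair and END after the 6 weeks that followed repair, and END-CC came from the other, unoperated shoulder on the last occasion. N6W was therefore untreated at PRE and TR, END-CC muscle of both drug arms had been under nandrolone, and no arm had its tendon left attached. Animals are the replicates, and a library is a single biopsy.

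A sequencing library is a fixed pool of reads that all transcripts of a tissue share. In skeletal muscle, transcripts of contractile proteins, of energy metabolism and of mitochondria are known to be very abundant, and a small number of genes takes much of the pool. When a gene that takes a large part of the pool moves, the parts left for all other genes move the other way even if their own transcripts do not. Scaling by library totals carries that shift into every other gene. Scaling by the typical gene, as with medians of ratios or trimmed means, is built to leave it out.

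The values behave like read numbers that a single factor per library has scaled, and the reads worked out from them summed to between 11879736 and 43065773 per library. ENSOARG00000017195 alone had 3273467 to 12441401 reads per library. The 95% Wilson interval of its share was at most 0.0258 percentage points wide to either side, for counting error only, so the spread below goes far beyond counting error. The 12 libraries from PRE and TR in CONTROL and N22W were taken as scaled apart from the other 24, and are called so below. The labels do not state this, and it was inferred from the values. The factors worked out had a geometric mean of 1.00 within the 12 and of 1.00 within the other 24. In those 12, 499 genes were more than 8 times as high as in every one of the other 24 libraries and held 8.34% to 12.8% of the summed values, against 0.0276% to 0.0538% elsewhere. Changes that run from the 12 to the 24 libraries are given as values only and were not tested.

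The gene held 22.5% to 37.2% of the summed values of a library. In a biopsy, fewer cells with a transcript and less of it per cell cannot be told apart. The gene ranked second held 3.06% to 5.87%, and the gap between them was 4.79-fold to 11.7-fold, with a median of 7.21-fold. These are reads per gene and not per length, so the gap is one of reads. ENSOARG00000019316 was second in 16 libraries and 2 other genes were second in the remaining 20. Between 11 and 188 of the next most abundant genes had to be added up to reach the sum of ENSOARG00000017195, the fewest in a CONTROL biopsy at repair (animal 2903) and the most in an N6W biopsy at repair (animal 2908). The 50 genes that followed it held 26.9% to 40.5% of the values together.

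Before release, the gene held 23.2%, 25.0% and 26.8% of the 3 CONTROL libraries, in the order of animals 2901, 2902 and 2903. At repair these animals stood at 26.8%, 25.7% and 22.5%. The animals had changed order and the groups overlapped, with means of 25.0% ± 1.79 at PRE and 25.0% ± 2.23 at TR (SD, n = 3 each). After repair the shares were 25.5%, 31.8% and 29.8% in the operated muscle, and 31.7%, 30.5% and 30.1% in the unoperated muscle. At the end, animal 2901 was low in its operated muscle only, and the 3 unoperated muscles lay close together at 30.8% ± 0.842 (SD, n = 3).

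In N22W the shares before release were 24.9%, 26.2% and 25.5% in animals 2913, 2914 and 2915. At repair, after 16 weeks of nandrolone, they were 27.1%, 32.9% and 24.1%, which was the widest group of all at 28.0% ± 4.50 (SD, n = 3). In the operated muscle at the end they were 34.3%, 35.4% and 35.7%, and this group of 35.1% ± 0.747 lay above all 6 operated muscles of the other arms. The unoperated muscle of the same animals held 34.0%, 33.4% and 29.9%.

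In N6W, untreated until repair, the shares before release were 33.2%, 33.5% and 29.1% in animals 2907, 2908 and 2909. At repair they were 37.2%, 35.8% and 34.5%, higher in all 3 animals, and the lowest library at TR exceeded the highest at PRE. In the operated muscle at the end they were 31.7%, 28.5% and 27.6%, below all 3 at repair. The unoperated muscle held 30.3%, 30.5% and 27.5%, a range that overlapped with that of the operated side.

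**Figure D1:**
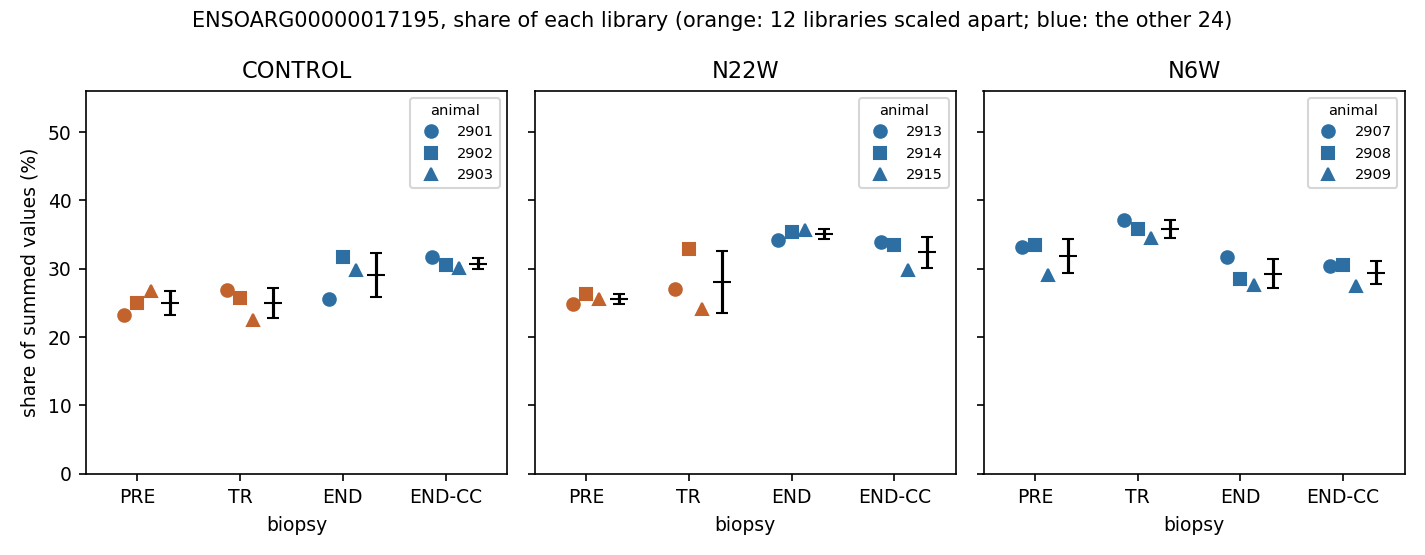
Share of the summed values held by ENSOARG00000017195 (percent, from 0) for each biopsy in each arm; a symbol is an animal, and the black bars give the mean and SD of 3 animals. Orange libraries belong to the 12 taken as scaled apart. The 3 N22W END libraries lie between 34.3% and 35.7%. The N6W libraries lie between 34.5% and 37.2% at TR and between 27.6% and 31.7% at END.

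Ordered by mean share, N6W at repair (35.8%) and N22W operated muscle at the end (35.1%) stood at the top. N22W unoperated muscle (32.4%), N6W before release (31.9%) and CONTROL unoperated muscle (30.8%) followed. Next came both N6W muscles at the end (29.4% unoperated and 29.3% operated), CONTROL operated muscle (29.0%) and N22W at repair (28.0%). N22W before release (25.6%) and CONTROL at repair and before release (25.0% each) were lowest. Of the neighbours in this order, only N22W operated and unoperated muscle at the end were further apart than the larger of the pair of SDs; all other neighbours lay within it. All groups of the 12 libraries scaled apart stood lowest, at 28.0% or less, and all other groups at 29.0% or more. Before release, when no arm was treated, N6W was the only arm outside those 12. Its mean was 31.9%, against 25.0% in CONTROL and 25.6% in N22W. With the 499 genes left out of the sums, the mean over those 12 libraries went from 25.9% to 28.9%, and that over the other 24 was 31.7% with and without them.

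Relative to its mean, the share varied less than the shares of the 50 next most abundant genes. Its coefficient of variation (CV, the SD as a percent of the mean) over the 36 libraries was 13.4%, whereas the 50 next most abundant genes ranged from 14.9% to 153% with a median of 29.6%. Within groups, arm and time point are shared, and animal, biopsy and library differ together. There the CV was 7.57%, against 10.9% to 79.4% for the 50 genes, with a median of 21.6%. Within the 24 libraries scaled together it was 9.48%, against 12.1% to 65.5%. ENSOARG00000017195 had the lowest CV of the 51 genes on all 3 counts, which describes these libraries; a share also cannot exceed the whole, which limits the relative spread of a large one.

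**Figure D2:**
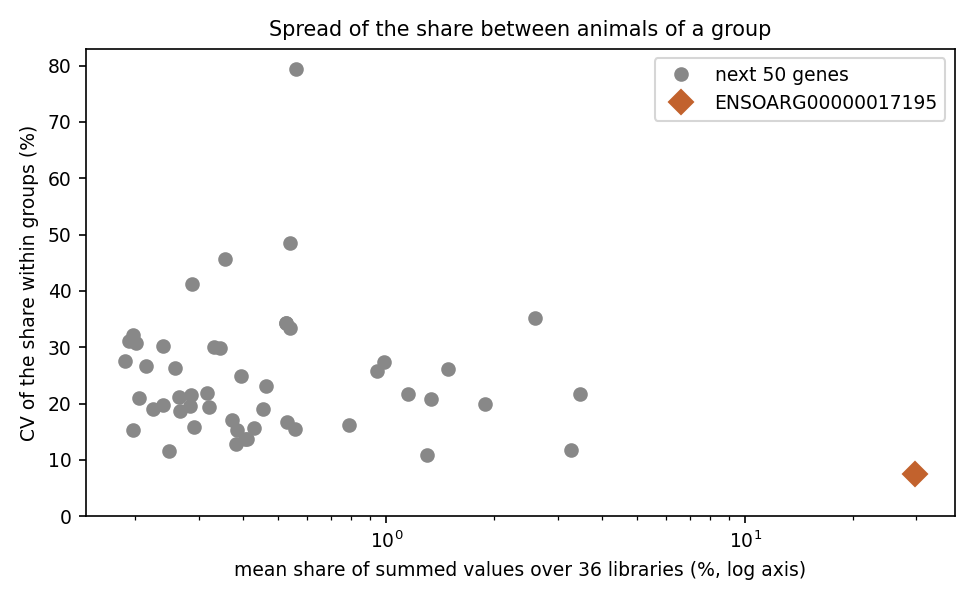
Mean share of the summed values over 36 libraries (percent, log axis) against the CV of the share between animals of a group (percent) for ENSOARG00000017195 (diamond) and the 50 next most abundant genes (circles). The diamond lies lowest, at 7.57%, and far to the right of all circles.

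For the change with tendon release, CONTROL and N6W were both untreated and were pooled. The share was higher at repair in 5 of 6 animals, with a mean change of 1.97 percentage points ± 3.42 (SD of the change), and CONTROL animal 2903 had a change of −4.22 points. This did not exceed the spread between animals (two-sided exact permutation test over animals, p = 0.219, Benjamini-Hochberg adjusted p = 0.444 over 16 comparisons). Without 2903 the mean change was 3.21 points and without 2909 it was 1.28. The arms lie in different sets of libraries: N6W alone had a mean change of 3.89 points ± 1.57, upwards in 3 of 3 animals, and CONTROL alone one of 0.05 points ± 3.98. With 3 animals the exact test cannot go below p = 0.25, the value it gave for N6W.

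In N22W, released under nandrolone, the share was higher at repair in 2 of 3 animals, with a mean change of 2.47 points ± 4.08 (exact permutation test, p = 0.50). The mean change was 0.50 points above that in the 6 untreated animals (exact permutation test of 3 against 6 animals, p = 0.905). Those 6 come from both sets of libraries. CONTROL, in the same set as N22W, had a mean change of 0.05 points, and N6W, in the other set, one of 3.89. The size rested on single animals: without 2914 the release change of N22W was 0.36 points, and without 2915 it was 4.43 points.

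The deposited values followed the shares only in part. In normalised reads, they were 7769000, 9070000 and 8882000 in CONTROL before release and 7829000, 7026000 and 5808000 at repair. N22W went from 8453000, 8479000 and 8478000 to 7026000, 10410000 and 5986000. N6W went from 5956000, 6310000 and 5578000 to 7956000, 6420000 and 5535000. At repair, 2 of 3 CONTROL animals and 2 of 3 N22W animals were lower, and 2 of 3 N6W animals were higher. The share and the deposited value moved the same way in animals 2901, 2903, 2907, 2908, 2914 and 2915, and opposite ways in 2902, 2909 and 2913. The 3 N22W libraries before release had almost the same value.

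In log2 units the release change was −0.32 in CONTROL, 0.14 in N6W and −0.16 in N22W. Each had a standard error (SE) of 0.146 from the gene's own residual spread. That spread is pooled over all 36 libraries, so the SE is the same in every arm. The SD of the changes of the 3 animals was 0.31 in CONTROL, 0.24 in N6W and 0.41 in N22W. The 6 untreated animals as 1 group gave −0.09 (own SE 0.103), and N22W differed from them by −0.07 (own SE 0.178). Single animals set these sizes: N6W gave 0.0069 without 2907, CONTROL −0.18 without 2903 and −0.49 without 2901, and the 6 untreated animals −0.02 without 2903 and −0.17 without 2901. None passed limma's test: the adjusted p was 0.932 in CONTROL, 0.972 in N6W, 0.971 in the untreated animals, 0.964 in N22W and 0.997 for the difference. Of the 16417 genes tested, limma called 11.2% in CONTROL, 6.98% in N6W, 23.9% in the 6 untreated animals, 16.8% in N22W and 0.0548% for the difference between N22W and untreated animals. In CONTROL, 23.7% of the genes tested had a lower log2 change than ENSOARG00000017195.

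**Figure D3:**
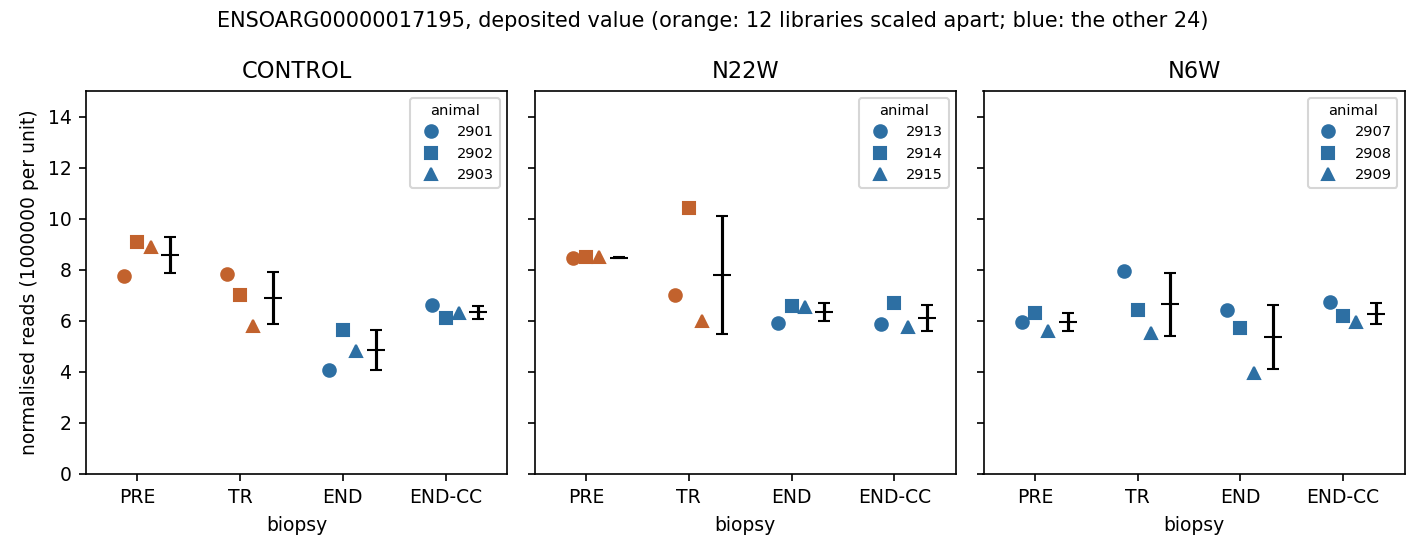
Deposited value of ENSOARG00000017195 in normalised reads (from 0) for each biopsy and arm; symbols are animals and black bars the mean and SD of 3 animals. Orange and blue libraries were treated as scaled apart and cannot be compared in level. Within the blue ones, the 3 CONTROL END libraries (4079000 to 5643000) lie below the 3 CONTROL END-CC libraries (6106000 to 6599000).

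Over the 6 weeks of repair under nandrolone in N6W, the share was lower in 3 of 3 animals, with a mean change of −6.53 percentage points ± 0.943, the largest mean change within an arm among those tested. The changes were −5.46, −7.25 and −6.87 points, and the groups did not overlap. The exact permutation test gave p = 0.25, the smallest value that 3 animals allow (adjusted p = 0.444). The deposited value was lower in 3 of 3 animals too, going from 7956000, 6420000 and 5535000 to 6408000, 5729000 and 3965000, but these groups overlapped. Its log2 change of −0.32 (own SE 0.146) did not pass limma's test (adjusted p = 0.978), which called 0.0853% of genes in this comparison.

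Repair in the other arms runs from the 12 libraries scaled apart to the other 24. The mean change in share was 7.09 points in N22W (lowest 2.49 and highest 11.6 of 3 animals) and 4.02 points in CONTROL (lowest −1.31 and highest 7.29). With the 499 genes left out of the sums these means were 4.19 and 0.79 points. The 499 genes are high in the 12 libraries, where the share of ENSOARG00000017195 is lower, and their part in the change beyond these values was not tested.

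At the end, the share in N6W stood below its baseline on both sides. The share in operated muscle was 2.64 points ± 2.03 lower than before release, and in unoperated muscle 2.47 points ± 0.755 lower, in 3 of 3 animals each (exact permutation test, p = 0.25 each, adjusted p = 0.444). The groups overlapped in both cases. The deposited value changed by −0.18 and 0.08 log2 units (own SE 0.146 each; limma adjusted p = 0.970 and 0.989), while limma called 6.19% and 8.18% of genes. Without animal 2909 the log2 change of the operated muscle was −0.02, without 2907 it was −0.32, and without 2908 its share change was −1.47 points. For the unoperated muscle the log2 change was 0.03 without 2907 and 0.13 without 2908.

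The 22-week change from PRE to END could be compared between N22W and CONTROL, because both cross the sets of libraries in the same way. The change in share was 9.17 to 10.1 points in the 3 N22W animals and 2.34 to 6.80 points in the 3 CONTROL animals, so the ranges did not overlap. The difference of 5.48 points had p = 0.10, the smallest value that an exact permutation of 3 against 3 animals allows (adjusted p = 0.444). It was 5.26 points with the 499 genes left out. The log2 deposited value differed by 0.41 (own SE 0.206) in the same direction, with mean changes of −0.42 in N22W and −0.83 in CONTROL. Limma's adjusted p was 0.994, and it called 0.122% of genes.

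Between the sides at the end, share and deposited value parted. The share was higher in the operated muscle in 6 of 9 animals, by a mean of 0.27 points ± 3.22 (exact permutation test, p = 0.766). The deposited value was lower in the operated muscle in 7 of 9 animals, with a mean log2 difference of −0.20 (own SE 0.0841; exact permutation test, p = 0.0859, adjusted p = 0.533 over 16 comparisons). Limma did not call this difference (adjusted p = 0.894) and called 38.8% of genes between the sides. DESeq2 called it (−0.20, SE 0.0862, adjusted p = 0.0482) and edgeR did not (adjusted p = 0.364).

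In CONTROL the deposited values were 4079000, 5643000 and 4806000 in operated muscle and 6599000, 6106000 and 6296000 in unoperated muscle, so the groups did not overlap. The log2 difference of −0.40 (own SE 0.146) had an adjusted p of 0.897 with limma, which called 19.4% of genes. DESeq2 called it (−0.40, SE 0.149, adjusted p = 0.0356) and edgeR did not (adjusted p = 0.368). The share in CONTROL, by contrast, was lower in the operated muscle in 2 of 3 animals, by 1.72 points ± 3.94 (exact permutation test, p = 0.75). Most of that came from animal 2901, and without it the share difference was 0.51 points the other way and the log2 difference of the deposited value −0.25.

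In N22W the operated muscle had the higher share in 3 of 3 animals, by 2.71 points ± 2.82 (exact permutation test, p = 0.25). The groups did not overlap. The differences were 0.31, 1.99 and 5.82 points, the last in animal 2915, without which the mean was 1.15 points. The deposited values, 5924000, 6584000 and 6518000 against 5875000, 6690000 and 5737000, overlapped, and their log2 difference was 0.06 (own SE 0.146, limma adjusted p = 0.991, with 1.6% of genes called). In N6W the share differed by −0.17 points ± 1.70 (exact permutation test, p = 1). The N6W deposited values were lower in the operated muscle in 3 of 3 animals, 6408000, 5729000 and 3965000 against 6716000, 6177000 and 5940000. Their log2 difference was −0.25 (own SE 0.146, limma adjusted p = 0.949), where limma called 4.12% of genes. Animal 2909 carried most of it, and without that animal the log2 difference was −0.09.

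**Figure D4:**
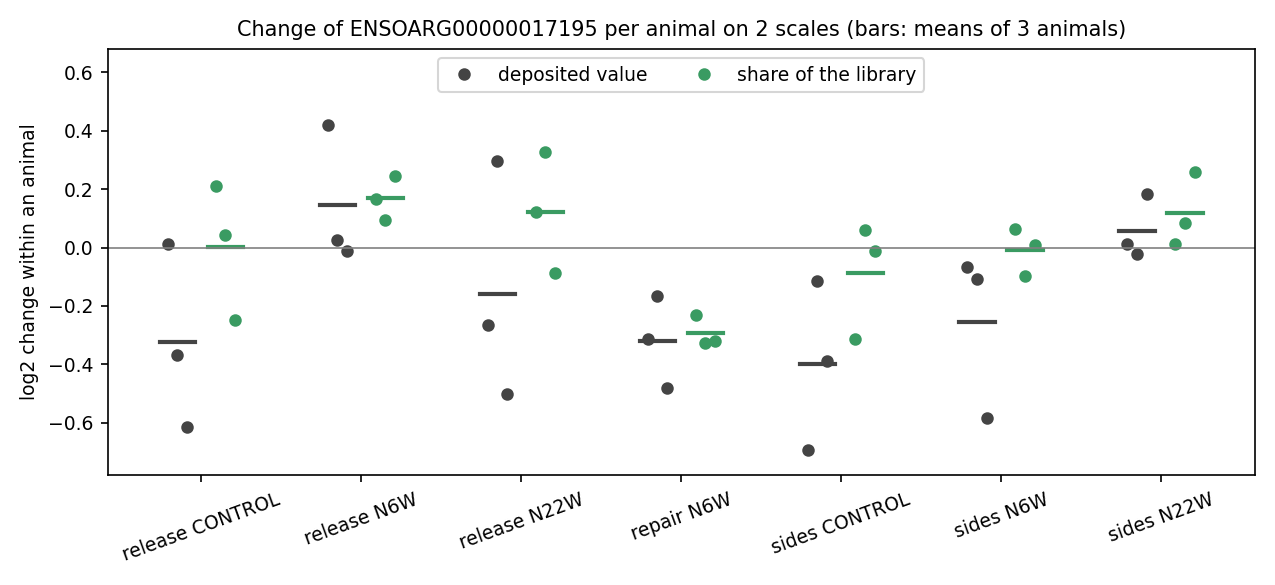
Change of ENSOARG00000017195 within each animal in log2 units, as deposited value (black) and as share of the library (green), for release, for repair in N6W and for operated minus unoperated muscle (sides). Bars are means of 3 animals; for sides in CONTROL all 3 deposited values lie below 0 (mean −0.40), whereas the shares lie on both sides of 0 (mean −0.09).

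Across the 9 animals, the share in operated and in unoperated muscle at the end was not shown to be related. Pearson's r was 0.44 (permutation p = 0.236) and Spearman's rho was 0.15 (permutation p = 0.708). With the 2 animals farthest from the median left out, r was 0.11. The 9 animals come from 3 arms, and a value within an arm would rest on 3 animals.

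Between arms at the end, the operated muscle of N22W held a larger share than that of CONTROL by 6.08 percentage points and than that of N6W by 5.85 points. Neither pair of groups overlapped, and both had p = 0.10 in the exact permutation test, the smallest that 3 against 3 animals allow (adjusted p = 0.444). The N22W libraries are the same in both comparisons. In the unoperated muscle N22W exceeded CONTROL by 1.66 points, with overlap (exact permutation test, p = 0.40), and by 0.88 points without 2913 and 2.94 without 2915.

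The deposited value of the operated muscle differed between N22W and CONTROL by 0.40 log2 units (own SE 0.207), with no overlap, and between N22W and N6W by 0.27 (own SE 0.207), with overlap. Without N6W animal 2909 the difference between N22W and N6W was 0.06, and without 2907 it was 0.41. In unoperated muscle N22W and CONTROL differed by −0.06 (own SE 0.0754), and by −0.01 to −0.12 with an animal left out. Limma's adjusted p was 0.998, 0.990 and 0.997, and it called 0 genes, or 0%, in each of these comparisons. Of the 16417 genes tested, 824, 1051 and 1499 had an unadjusted limma p below 0.05. A fraction of 0.05 of all genes would pass that cut by chance alone. After adjustment, edgeR called 0 in each and DESeq2 called 54, 13 and 106.

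The errors that limma used for this gene were far above its own. The limma fit borrows from genes of like abundance to set an expected SD, and ENSOARG00000017195, with a mean log2 value of 22.6, lies well above the next gene at 19.5. Its expected SD came out at 4.37, against 0.178 observed in the gene itself and a median expected SD of 0.252 over all genes. Its SEs were 12.1 times its own in the changes within animals, so its adjusted p lay between 0.894 and 0.998 in all 16 comparisons, and that test could not have called changes of the size seen here. With an expected SD common to all genes, chosen as an alternative after the data had been seen, the gene was called in 0 of 16 comparisons and had an unadjusted p below 0.05 in 4. The lowest adjusted p of that fit was 0.0725, for the sides in CONTROL. EdgeR called the gene in 0 comparisons, with 0 at an unadjusted p below 0.05, and DESeq2 called it in 2, the sides in CONTROL and the sides in all arms.

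How far the gene moves the others depends on the scaling. The part of a library left for the other genes varied by a factor of 1.23 over the 36 libraries. It varied by 1.16 within the 12 libraries scaled apart and by 1.19 within the other 24. Under scaling by totals, every other gene is moved by that factor between the libraries at its ends. With trimmed means of M values (TMM), leaving the gene out altered the factor of a library by at most 2.11%. With the median of ratios it altered it by at most 0.00673%. The deposited size factors lay within 6.18% of medians of ratios recomputed for the 12 libraries and within 2.72% for the other 24. In the 12, deposited over recomputed factors ran from 0.938 to 1.006 at PRE and from 1.006 to 1.055 at TR. With the median of ratios over all 36 libraries, the gene's log2 release change was −0.25 in CONTROL and −0.09 in N22W. The deposited scaling gave −0.32 and −0.16. For CONTROL release limma called 767 genes higher and 578 lower with the median of ratios, against 691 and 1152 as deposited.

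The largest shift under totals was in N6W repair, where the mean share changed by −6.53 points and the part left for the other genes was 10.1% larger after repair. Leaving the gene out of the totals lowered the log2 change of the 16416 other genes by a median of 0.14 and turned the sign of 3063 of them (18.7%). With the gene in the totals limma called 20 genes, 19 of them higher at END. With the gene left out it called 8, of which 5 were higher, and 6 genes were called both times. TMM called 15 genes either way, all 15 the same, and the median of ratios did likewise.

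In N6W release the balance of calls turned from lower to higher. With the gene in the totals, limma called 828 genes, 343 higher and 485 lower. With the gene left out it called 789, 544 higher and 245 lower, and 588 genes were in both lists (71.0% of the first and 74.5% of the second). The share of higher calls thus went from 41.4% to 68.9%. The median log2 shift behind it was 0.08. The other scalings called more genes and were nearer to balance, with 618 higher and 528 lower under the deposited scaling, 599 and 639 under TMM, and 621 and 627 under the median of ratios, the gene being counted in both of these. The 6 untreated animals as 1 group went from 3281 calls, 2464 of them higher, to 3715 calls, 3092 of them higher. The deposited scaling gave 1707 higher and 2218 lower, TMM 1868 and 1973, and the median of ratios 1879 and 1931. TMM and the median of ratios set the typical change near 0 by design. Their nearer balance therefore cannot tell which scaling is right, and this was not tested.

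For operated against unoperated muscle in N22W, 160 genes were called with the gene in the totals, 55 higher and 105 lower. Without it 73 were called, 42 higher and 31 lower, and all 73 were among the 160. The deposited scaling called 263, 135 higher and 128 lower. With the gene counted, TMM called 342 (135 higher and 207 lower) and the median of ratios 290 (141 higher and 149 lower). For the 22-week change of N22W against CONTROL, the calls went from 29 to 14, all 14 among the 29, and 2066 genes (12.6%) changed sign. Between arms at the end, 3026 genes (18.4%) changed sign for operated muscle of N22W against CONTROL, and 2309 (14.1%) against N6W, with 0 genes called by limma either way.

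In CONTROL release, where the mean share differed by 0.05 points, leaving the gene out shifted the other genes by a median of 0.00 log2 units and 21 of them changed sign. Between sides in all arms, totals gave a median log2 difference over genes of 0.25 with ENSOARG00000017195 and of 0.26 without it, where the deposited scaling gave 0.06. That gap between totals and the deposited scaling was thus as large with the gene left out. Over all 16 comparisons, TMM shifted the other genes by −0.02 to 0.03 log2 units and turned the sign of 0.164% to 2.70% of them. The median of ratios turned 8 signs in all 16 comparisons, lost 0 calls and gained 4.

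**Figure D5:**
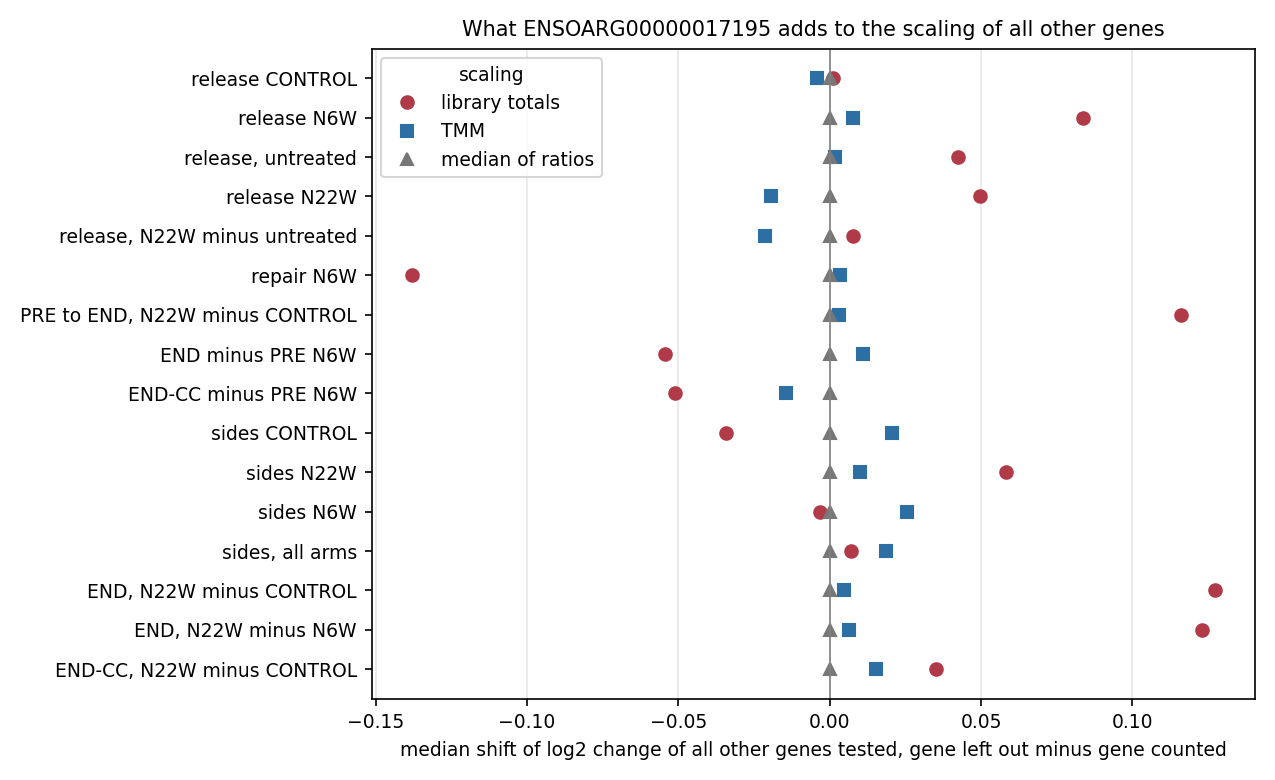
Median shift in the log2 change of the 16416 other genes when ENSOARG00000017195 is left out of the scaling, for each of 16 comparisons, under library totals (circles), TMM (squares) and the median of ratios (triangles). Totals shift the other genes from −0.14 (N6W repair) to 0.13 (END, N22W minus CONTROL), and the triangles all lie at 0.00.

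The genes whose deposited values followed it most closely were sought among 7703 genes with a mean value of at least 100, by Pearson's r of log2 values over the 24 libraries scaled together. ENSOARG00000003308 had an r of 0.77 and ENSOARG00000009990 one of 0.76. In the other 12 libraries these were 0.45 and 0.79, and after scaling the 24 libraries to totals they were 0.61 and 0.34. The most opposite were ENSOARG00000016258 at −0.75 and ENSOARG00000020749 at −0.73, which had −0.55 and −0.80 in the other 12 libraries and −0.16 and −0.19 after scaling to totals. The median r over all 7703 genes was 0.14 in the 24 libraries and 0.275 in the other 12. By r in those 12, ENSOARG00000003308 ranked 2237 of the 7703 genes and ENSOARG00000009990 ranked 27. These correlations are descriptions over libraries that share animals and size factors. Except for that of ENSOARG00000003308, they were much smaller once the 24 libraries were scaled to totals.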

How the data were processed

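Total RNA from 36 biopsies was sequenced as stranded libraries, with ribosomal RNA removed by human probes, per the labels' protocols. Oar_v3.1, STAR 2.3.0e and R 3.0.2 appear in the submitters' processing notes. The way reads were counted and scaled was not given in the sources used here. Deposited by the authors was a signal per gene, with 4 significant digits and no stated unit. In each library it moves in whole steps (100% within 0.1, up to 100 reads), so it was taken as reads over a size factor. In 2 libraries that step lies near 1.

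Share is the gene's part of the summed values. The log2 change was fitted with limma 3.58.1 (R 4.3.3, trended prior) on log2(value + 1) for 16417 genes with a median of at least 0.5. Changes within animals used 36 libraries and the animal as block, and arms were compared at END or END-CC over the 9 libraries of that time point. The Benjamini-Hochberg threshold was 0.05. The test planned for whole counts (edgeR) became an alternative, since the values are normalised. The block follows the design, in which an animal gave 4 biopsies; deviations from the mean of a group, checked for this, had a mean r of 0.24 within animals and of −0.05 between them. Pairs of libraries of a group differed by a chi-square of 15.2 to 155.8 per gene, so none was counted as a copy.

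Shares were tested by exact permutation over animals (scipy 1.17.1). Totals, TMM (edgeR 4.0.16) and the median of ratios were computed with the gene in and out. Alternatives were edgeR, DESeq2 1.42.0, another pseudocount (0.5), no filter, no block, only the libraries compared, and each animal left out. A constant prior, the exact test on log2 values and leaving out the 499 genes were added after the data had been seen. The fitting code was tested on simulated data. The named genes are the gene itself, the gene most often second, and the 2 most and the 2 least correlated with it. The gene, the comparisons and this rule were chosen with earlier results of these data known. Comparisons share libraries.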

Additional observations from a re-analysis of the deposited data

Results flagged for a closer look

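In 5 comparisons of arms, every animal of N6W moved one way and every animal of another arm the opposite way. The differences were not tested. A share does not depend on the size factor, but the sets of libraries also differ in content. The CONTROL and N22W changes run from one set to the other and those of N6W do not, so set and arm cannot be told apart. Over repair, the mean change in the share of ENSOARG00000017195 was −6.53 percentage points in N6W and 7.09 in N22W, a difference of −13.6 points. From PRE to END in the operated muscle it was −2.64 points in N6W, 4.07 in CONTROL and 9.55 in N22W, differences of −6.71 and −12.2 points. From PRE to END-CC in the unoperated muscle it was −2.47 points in N6W, 5.79 in CONTROL and 6.85 in N22W, differences of −8.26 and −9.32 points. With the 499 genes left out of the sums, the changes were 4.19 points for N22W repair (lowest animal −0.49), 1.32 and 6.59 points for PRE to END, and 3.04 and 3.88 points for PRE to END-CC, in CONTROL and N22W in that order. The 3 animals of CONTROL and of N22W were then still above PRE in both comparisons, by as little as 0.04 points in CONTROL operated muscle.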

How the results depend on the processing

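Scaling to totals, with the gene counted, turned the log2 change of the gene to 0.0016 for CONTROL release, 0.085 for release in the untreated animals, 0.12 for N22W release, 0.036 for N22W against untreated release, −0.11 for END-CC against PRE in N6W, 0.0067 for the sides in all arms and 0.074 for END-CC of N22W against CONTROL. With the gene left out of the totals the same 7 changes were 0.0028, 0.13, 0.17, 0.044, −0.17, 0.014 and 0.11, and edgeR gave 0.0047 for the fourth. Limma called none of these under either sign. DESeq2 called the sides in CONTROL (−0.40) and in all arms (−0.20). Genes called for N6W repair numbered 14 with limma and 8 with totals without the gene, 5 with a constant prior, 9 without a filter, 7 from the libraries compared alone, 24 with edgeR and 98 with DESeq2. For untreated release 2533 genes were called, against 3925, from the libraries compared alone. No replicate block left 2 genes for N6W repair, 2640 for untreated release and 4977 for the sides. Leaving out animals gave 2204 to 4237 genes for untreated release (2204 without 2902, 2239 without 2909) and 0 to 20 for N6W repair (0 without 2907, 3 without 2908). The log2 change ran from −0.38 to 0.015 for N22W release, from −0.29 to 0.10 for N22W against untreated release, and from −0.0055 to 0.10 for the sides in N22W. The share change ran from −1.75 to 2.19 points for CONTROL release, from −1.61 to 2.46 for N22W against untreated release, from −3.22 to 0.51 for the sides in CONTROL, from −0.93 to 0.75 for those in N6W and from −0.42 to 1.08 for those in all arms. The cause of these moves was not tested. The other settings listed in the methods kept the direction of every change of the gene; that limma with a trended prior made no call of the gene under them says nothing about stability, since it could not have called changes of this size. Counting depth is no limit for this gene, whereas 3 animals per arm are.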
